A study of Mus musculus with 24 samples.

Results

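The 9 genes described here encode the pumps that move bile acids, bilirubin conjugates and phospholipid out of hepatocytes, the main cells of the liver. They were taken by name from a table of 34436 gene symbols, and all 9 were found there. No measured value was a rule for taking them, although they were chosen with earlier results of these data known. Whole liver of wild-type C57BL/6 mice was sequenced after 8 weeks on a diet begun at 8 to 10 weeks of age. The 5 diets with usable libraries were high sucrose plus 2% cholesterol (HS_Chol, 3 libraries), high sucrose (HS, 5), 2% cholesterol plus cholic acid (Chol_CA, 4), cholic acid (CA, 4) and normal chow (NC, 4). The labels name 6 diets, and the diet labelled HS_Chol_CA was not used. They also list 4 HS_Chol samples, against the 3 HS_Chol libraries found. All groups share strain and genotype, and no dose of cholic acid and no sex is given in the labels. One field of 1 HS sample names chow as its diet; since no library could be tied to that sample, every HS library was kept and each was also left out in turn. Library numbers below (NC_3, CA_0) are those of the table. The labels number the samples but do not say that each came from its own animal, so p-values measure the spread between these samples, which may be technical.

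Bile acids are made from cholesterol in hepatocytes and leave the cell on either of its faces. On the canalicular face, which drains to bile, Abcb11 (the bile salt export pump) moves bile salts, Abcc2 (Mrp2) moves bilirubin glucuronides and other conjugates, Abcb4 (Mdr2) flips phosphatidylcholine to the outer leaflet, Abcb1a is a P-glycoprotein for drugs, and Atp8b1 flips aminophospholipids inward and keeps the membrane stable against bile salts. On the basolateral face, which meets the blood, Osta and Ostb form the heterodimer OSTα-OSTβ, and Abcc3 (Mrp3) and Abcc4 (Mrp4) move conjugated bile acids. The bile acid receptor FXR binds inverted repeats of AGGTCA spaced by 1 base (IR-1) and is known to activate Abcb11 and both Ost genes, whereas the xenobiotic receptors PXR and CAR are known to act on several of the Abcc genes and Abcb1a.

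The sequences before 2 of these genes are shown because Abcb11 is the textbook bile acid receptor target on the canalicular face and Ostb, on the basolateral face, was called in CA livers against NC livers, with a log2 fold change of 5.18 ± 0.41. Each is the 250 bases before the transcription start, 5′ to 3′ on the gene's strand, from RefSeq with build GRCm38.p6. Abcb11 lies at chr2:69342617-69342866 and Ostb at chr9:65422774-65423023, both on the minus strand. Capitals mark matches to IR-1, searched as AGGTCANTGACCT on both strands with up to 2 mismatches.
Abcb11: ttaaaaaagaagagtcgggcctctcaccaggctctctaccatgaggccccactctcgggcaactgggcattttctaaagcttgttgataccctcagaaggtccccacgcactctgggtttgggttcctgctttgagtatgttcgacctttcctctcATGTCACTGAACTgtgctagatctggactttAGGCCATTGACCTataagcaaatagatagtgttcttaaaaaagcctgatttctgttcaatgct
Ostb: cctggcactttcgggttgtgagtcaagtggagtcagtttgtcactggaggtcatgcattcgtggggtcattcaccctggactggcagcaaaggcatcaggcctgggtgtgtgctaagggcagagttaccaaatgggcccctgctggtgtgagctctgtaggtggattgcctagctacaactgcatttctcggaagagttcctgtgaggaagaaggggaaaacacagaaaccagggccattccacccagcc

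In Abcb11 the stretch AGGCCATTGACCT, from position -63 to -51 relative to the start, differed from IR-1 at 1 base. A second stretch, ATGTCACTGAACT from -94 to -82, differed at 2 bases. Among 32851 mouse promoters of the same length, 0.07915% held a match with at most 1 mismatch and 0.9589% one with at most 2 mismatches. The Ostb window held none of these letters, and no more can be read from that. A promoter entry was found for 7 of the 9 genes. The letters TGACNNNGC, the core of the antioxidant response element, stood in 10.16% of all promoters and, of these members, before Abcc2 (TGACATAGC, -98 to -90) and before both listed starts of Abcc4.

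Total reads per library ran from 6110484 to 10244277. Levels are given as CPM, the reads of a gene per 1e+06 reads after TMM scaling, and comparisons between genes use RPKM, which also divides by exon length. Exon length is that of the merged exons of all annotated transcripts of a gene. Summed hepatocyte markers ran from 89075 to 100413 CPM in HS_Chol, 104406 to 119777 in HS, 64018 to 83078 in Chol_CA, 90571 to 123234 in CA and 132118 to 133328 in NC livers. Most of each sum was Alb, which averaged 90875 ± 3730 CPM in NC and 40608 ± 8137 CPM in Chol_CA livers (SD). Of the 9 markers, 0 were called lower than in NC livers in HS and in HS_Chol, 1 in CA and 2 in Chol_CA, and 0 were called higher. Whole tissue was sequenced, so fewer cells of a type and less RNA per cell cannot be told apart. Libraries also stood apart in 2 technical measures. The slope of read level on exon length was negative in 8 libraries (HS_Chol_0, HS_0, HS_1, HS_2, Chol_CA_0, Chol_CA_1, CA_0 and NC_3) and positive in 12. Reads on light-strand mitochondrial tRNA genes, which reads given to the wrong strand would raise, numbered 673 to 900 in HS_Chol and 8.95 to 83.4 in all other libraries, per 1e+06 reads on the heavy-strand mRNA genes. All HS_Chol libraries stood apart in this measure, so in results on that diet the diet and this property of its libraries cannot be told apart.

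Per exon length, Abcb11 was the highest of the 9 genes in every diet. Its mean RPKM was 119.8 ± 22.8 in HS_Chol, 130.2 ± 26.4 in HS, 137.8 ± 56.2 in Chol_CA, 258 ± 74.6 in CA and 163.6 ± 42.3 in NC livers (SD; n = 3, 5, 4, 4 and 4). In NC livers Abcc3 followed at 62.9 ± 7.55 RPKM, then Abcc2 at 51.8 ± 20.4 and Abcb4 at 34.3 ± 7.08, and each lay within the summed SDs of its neighbour in that order. The order depends on the exon length used: by CPM, Abcc2 (442 ± 174) came before Abcc3 (358 ± 43.0) in NC livers. Atp8b1 stood lower, at 10.2 ± 3.10 RPKM. Abcc4, Ostb and Abcb1a lay between 0.551 and 0.662 RPKM in NC livers and did not differ beyond their spread. The order was not the same on all diets: in HS livers Abcc3, at 14.7 ± 5.02 RPKM, stood below Abcc2 at 34.7 ± 10.1 and Abcb4 at 28.6 ± 3.02. In CA livers Ostb reached 23.8 ± 3.88 RPKM and Abcb1a 17.0 ± 8.78 RPKM, with means above Atp8b1 at 7.39 ± 1.59 RPKM, although the gap between Abcb1a and Atp8b1 was within their summed SDs.

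**Figure D1:**
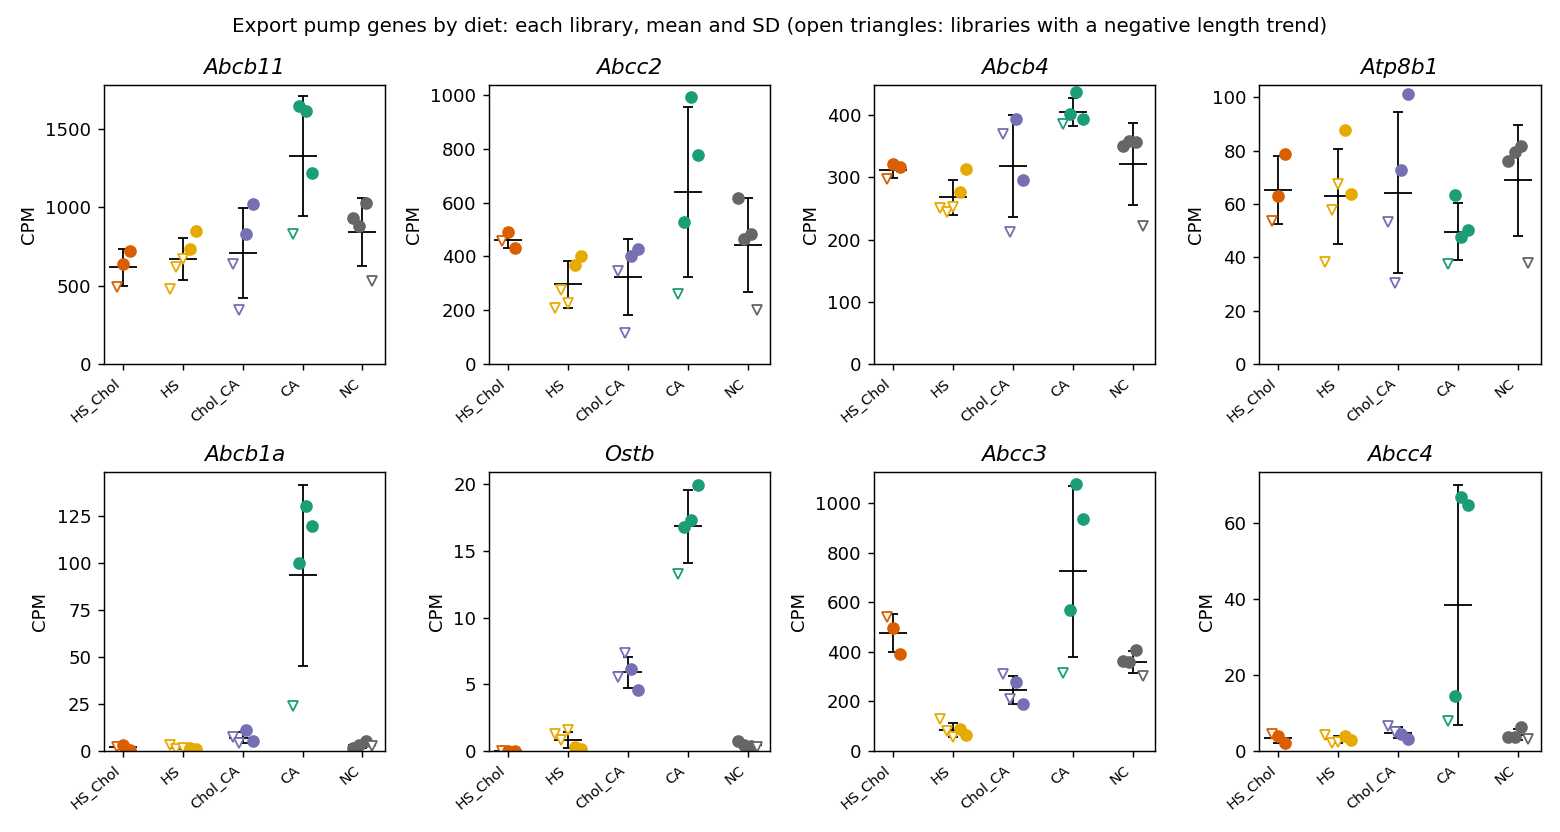
Levels (CPM, vertical axes from 0, each with its own scale) of the 8 export genes with more than 1 read in any library, by diet. Points are libraries, open triangles are libraries with a negative length slope, and bars are the mean and SD. The 4 CA libraries lie between 23.6 and 130.2 CPM for Abcb1a and between 13.3 and 19.9 CPM for Ostb, above every library of the other diets.

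Cholic acid against chow. In CA livers the basolateral exporters Ostb, Abcc4 and Abcc3 and the canalicular drug pump Abcb1a were higher than in NC livers. The 3 main canalicular pumps Abcb11, Abcc2 and Abcb4 and the flippase Atp8b1 were not called in the fit of all diets. Of 17 alternative fits, Abcb11 was called in 3, Abcb4 in 2, and Abcc2 and Atp8b1 in 1 each. All of these took the length slope or exon length into account. For Abcc2 and Abcb4 they were only fits chosen after seeing the data. Of the 8 members tested, 4 were called higher and 0 lower, where 5.22% of all 12595 tested genes were called higher and 4.61% lower (edgeR adjusted p under 0.05). The median log2 fold change was 0.84 over the members and 0.01 over all tested genes.

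Abcb1a (ENSMUSG00000040584.8, chr5:8660077-8748575, plus strand, GRCm38) had 23.6, 99.7, 130.2 and 119 CPM in CA_0, CA_1, CA_2 and CA_3, against 1.57, 2.90, 5.05 and 2.55 CPM in the 4 NC libraries. The groups did not overlap, and CA_0 was the low one of the CA livers. The log2 fold change was 4.93 ± 0.50 (SE; adjusted p = 3.00e-06). Abcb1b, the close paralog of Abcb1a, averaged 0.533 ± 0.522 CPM in CA livers and 1.87 ± 1.05 CPM in NC livers (SD, n = 4 each; adjusted p = 0.0631). Reads of 50 bp can fall on stretches that both copies share, and how the counting treated them is not given in the sources used here.

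Ostb (ENSMUSG00000053862.6, chr9:65412714-65422955, minus strand) had 13.3, 16.8, 17.4 and 19.9 CPM in the CA libraries, against 0.715, 0.415, 0.389 and 0.284 CPM in the NC libraries, which is 2 to 5 reads per NC library. The groups did not overlap, and the log2 fold change was 5.18 ± 0.41 (adjusted p = 4.87e-07). Its partner Osta (chr16:32474504-32487879, minus strand) was not detectable at this depth: 1 read in NC_2 was the only read of the gene in the 20 libraries, and 0 reads over the 4 CA libraries allow a level of up to 0.0820 CPM. OSTα-OSTβ needs both chains for transport, and Osta shares 567 bp of its exons with Pcyt1a on the opposite strand.

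Abcc4 (ENSMUSG00000032849.14, chr14:118482692-118706219, minus strand) had 7.98, 14.3, 66.8 and 64.9 CPM in CA_0 to CA_3, against 3.72, 3.73, 6.35 and 3.12 CPM in the NC libraries. The groups did not overlap, and CA_0 and CA_1 were the lower pair of the CA livers. The log2 fold change was 3.18 ± 0.52 (adjusted p = 0.00047). Abcc3 had 316, 570.3, 1076 and 937 CPM in the CA libraries, against 365, 359.7, 407 and 302 CPM in the NC libraries. Here CA_0 lay inside the NC range, and the log2 fold change was 1.02 ± 0.30 (adjusted p = 0.0335). This call was lost without CA_2 (adjusted p = 0.147), without CA_3 (0.121), without any 1 of the NC libraries (0.0585 to 0.0804) and with CA and NC alone in the fit (0.0858).

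Abcb11 (ENSMUSG00000027048.15, chr2:69238282-69342616, minus strand) had 831, 1644, 1616 and 1221 CPM in the CA libraries, against 931, 878, 1029 and 529 CPM in the NC libraries. Its log2 fold change was 0.66 ± 0.28 (adjusted p = 0.173). The lowest CA library (CA_0) and the lowest NC library (NC_3) were those with a negative length slope. With only libraries of positive slope the log2 fold change was again 0.66 and passed (adjusted p = 0.0025), and with the sign of the slope as a term it was also 0.66 and passed (0.0111). With the slope as a covariate, an alternative chosen after seeing the data, Abcb11 was at 0.76 and passed (0.000229). Abcc2 was at 0.53 ± 0.39 on the log2 scale (adjusted p = 0.491) and passed with the slope as a covariate (0.67, adjusted p = 0.0294). Abcb4 was at 0.33 ± 0.17 (0.274) and passed with the covariate (0.40, 0.0178) and with an offset for exon length (0.39, 0.0434). The offset was, like the covariate, chosen after seeing the data. Abcb4 had 386, 402, 438 and 394 CPM in the CA libraries, all above the 349.9, 359, 356 and 222 CPM of the NC libraries. Atp8b1 was at -0.47 ± 0.31 on the log2 scale (0.419), and at -0.56 with a pass (0.0225) among libraries of positive slope.

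**Figure D2:**
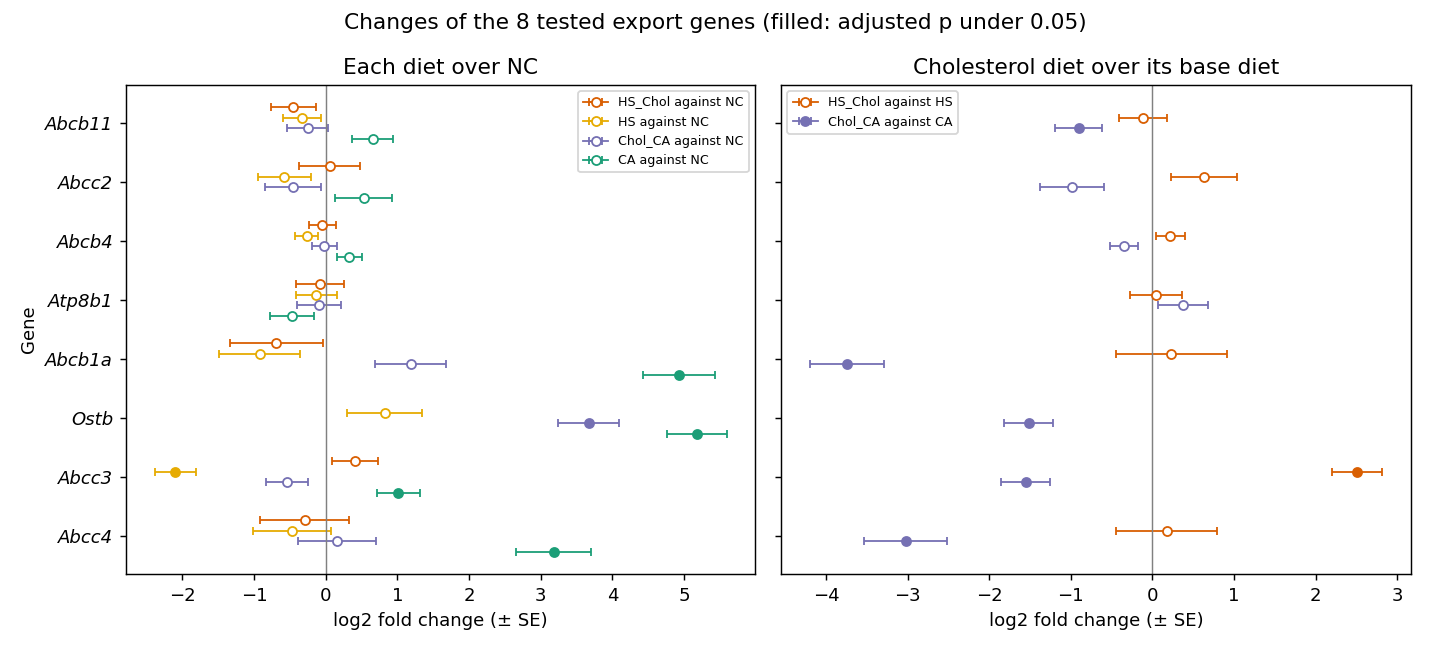
Fitted log2 fold changes with SE (horizontal axes) for the 8 tested export genes (vertical axis). Left, each diet over NC; right, each cholesterol diet over its base diet. Filled symbols passed an adjusted p of 0.05; Ostb in HS_Chol is not drawn because it had no reads. The CA symbols of Abcb1a, Ostb, Abcc3 and Abcc4 are filled at 4.93, 5.18, 1.02 and 3.18.

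Markers of cells other than hepatocytes also differed between these diets. All 11 Kupffer cell markers in the table were called higher in CA than NC livers, with summed levels of 281 to 876 CPM in CA against 116 to 187 CPM in NC livers. Of the 11 tested bile duct markers 1 was called higher (Krt23), and the sum of all 14 in the table was 187 to 235 CPM in CA against 133 to 189 CPM in NC livers. Spp1 was the largest part of this sum, at 89.1 ± 28.5 CPM in CA and 59.7 ± 21.7 CPM in NC livers (SD). Summed over the libraries of a diet, no marker of either list was at 0 in CA or NC livers, although the bile duct marker Cldn4 had only 6 reads in the NC libraries and none in at least 1 of them. Bile duct cells are known to carry OSTα-OSTβ and Abcc3 too, and the part of other cells in the export gene changes was not tested.

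Cholesterol added to cholic acid. Against CA livers, Chol_CA livers had lower levels of Ostb, Abcc4, Abcc3, Abcb1a and Abcb11. Of the 8 members 5 were called lower and 0 higher, where 13.4% of all tested genes were called higher and 7.80% lower. The median log2 fold change was -1.25 over the members and 0.02 over all tested genes. These values share the CA libraries with the comparison of CA and NC livers, so the 2 comparisons are not independent.

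Abcb1a had 7.54, 4.24, 10.8 and 5.08 CPM in the Chol_CA libraries, below every CA library (23.6 to 130.2 CPM), with a log2 fold change of -3.74 ± 0.46 (adjusted p = 1.94e-05). Abcc4 had 6.62, 4.92, 4.39 and 3.14 CPM in the Chol_CA libraries, also below every CA library (7.98 to 66.8 CPM), and its log2 fold change was -3.02 ± 0.51 (adjusted p = 0.000434). Ostb had 5.56, 7.33, 6.15 and 4.54 CPM in the Chol_CA libraries, against 13.3 to 19.9 CPM in the CA libraries (log2 fold change -1.51 ± 0.30, adjusted p = 0.00176). The groups did not overlap for any of these genes.

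Abcc3 had 309.7, 209.6, 278 and 189 CPM in the Chol_CA libraries, against 316 to 1076 CPM in the CA libraries, and the log2 fold change was -1.55 ± 0.30 (adjusted p = 0.0012). The groups were separated by the narrow gap between Chol_CA_0 and CA_0, both of which had a negative length slope. Abcb11 had 640.4, 343, 829 and 1022 CPM in the Chol_CA libraries, against 831, 1644, 1616 and 1221 CPM in the CA libraries, and these ranges overlapped. Its log2 fold change was -0.91 ± 0.29 (adjusted p = 0.0285), a call that was lost with the 2 diets alone in the fit (0.109) and without CA_1, CA_2, Chol_CA_0 or Chol_CA_1 (0.0546 to 0.086). Abcc2 (-0.99 ± 0.40, adjusted p = 0.0866), Abcb4 (-0.35 ± 0.17, 0.17) and Atp8b1 (0.37 ± 0.31, 0.45) were not called. Abcc2 passed with the length offset (0.0349), with the slope as a covariate (0.00474), among libraries of positive slope (0.0102) and without CA_0 (0.0194). Abcb4 passed with the covariate (0.0419), and Atp8b1, which was higher, with the covariate (0.0454) and among libraries of positive slope (0.0119).

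The paralog Abcb1b went the other way from Abcb1a: it averaged 3.83 ± 1.25 CPM in Chol_CA livers and 0.533 ± 0.522 CPM in CA livers (SD, n = 4 each), a log2 fold change of 2.82 ± 0.56 (adjusted p = 0.00147). In the same comparison 9 of 10 markers of monocyte-derived macrophages and all 10 stellate and matrix markers were called higher. The macrophage markers summed to 478 to 2109 CPM in Chol_CA livers, against 127 to 292 CPM in CA livers. Of 11 tested bile duct markers 2 were called higher and 2 lower, and the list summed to 206 to 436 CPM in Chol_CA against 187 to 235 CPM in CA livers. The largest part of that sum was Spp1, a gene also in the macrophage list, at 235.6 ± 108.9 CPM in Chol_CA and 89.1 ± 28.5 CPM in CA livers (SD). No marker of these lists was at 0 in the summed reads of either diet, and the part of these cells in the values of export genes was not tested.

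Chol_CA against chow. Only Ostb, of the 8 members tested, was called in Chol_CA livers when set against NC livers, and it was higher, where 15.0% of all tested genes were called higher and 9.35% lower. Its 5.56, 7.33, 6.15 and 4.54 CPM in the Chol_CA libraries stood above the 0.284 to 0.715 CPM of the NC libraries. The log2 fold change was 3.67 ± 0.43 (adjusted p = 6.46e-06). Abcb1a was at 1.19 ± 0.50 on the log2 scale (adjusted p = 0.0933), Abcc3 at -0.54 ± 0.30 (0.212) and Abcc4 at 0.16 ± 0.54 (0.875). Abcb11 was at -0.25 ± 0.28 (0.582), Abcc2 at -0.45 ± 0.39 (0.454), Abcb4 at -0.02 ± 0.17 (0.96) and Atp8b1 at -0.10 ± 0.31 (0.86). The median log2 fold change was -0.06 over the members and near 0.00 over all tested genes (-0.0016). In the same comparison 11 of 11 Kupffer cell markers, 10 of 10 markers of monocyte-derived macrophages, 6 of 10 stellate and matrix markers and 3 of 11 bile duct markers were called higher. The bile duct markers summed to 206 to 436 CPM in Chol_CA against 133 to 189 CPM in NC livers. The largest part of this sum was Spp1, which is also in the macrophage list. Spp1 averaged 235.6 ± 108.9 CPM in Chol_CA and 59.7 ± 21.7 CPM in NC livers (SD). The median log2 fold change of the tested bile duct markers was -0.03. The part of these cells in the Ostb value was not tested.

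High sucrose against chow. Abcc3 was the 1 member called, and it was lower, where 0.214% of all tested genes were called higher and 0.437% lower. Abcc3 had 129.9, 79.6, 56.6, 87.4 and 64.4 CPM in the 5 HS libraries, against 365, 359.7, 407 and 302 CPM in the 4 NC libraries. Every HS library lay below every NC library, and the log2 fold change was -2.10 ± 0.29 (adjusted p = 0.000607). Over the alternatives run, leaving out each HS library among them, it stayed between -2.32 and -1.99, with an adjusted p of at most 0.00636. The median log2 fold change was -0.40 over the members and 0.02 over all tested genes. Abcb1a was at -0.92 ± 0.57 on the log2 scale, Abcc4 at -0.47 ± 0.55 and Ostb at 0.82 ± 0.52. Abcb11 was at -0.33 ± 0.27, Abcc2 at -0.58 ± 0.37, Abcb4 at -0.26 ± 0.16 and Atp8b1 at -0.13 ± 0.29, and the adjusted p of these 7 genes ran from 0.567 to 0.879. The length slope was negative in 3 of 5 HS and 1 of 4 NC libraries. Over the alternatives run, Abcb11 ran from -0.51 to -0.02, Abcc2 from -0.83 to -0.12 and Atp8b1 from -0.34 to 0.20. The part of the slope in the median of the members was not tested. The ratio of Abcc3 to Abcc2 reads, basolateral to canalicular, had a median of 0.251 in HS livers (0.16 to 0.629) and 0.807 in NC livers (0.591 to 1.51), a difference with a two-sided exact permutation p of 0.0238, which did not pass when adjusted over the 8 ratio tests made (0.114).

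High sucrose with cholesterol. Against HS livers, HS_Chol livers had more Abcc3 and no reads of Ostb. Of the 8 members 1 was called higher and 1 lower, where 1.60% of all tested genes were called higher and 0.651% lower. Abcc3 had 541, 495 and 391 CPM in the HS_Chol libraries, against 56.6 to 129.9 CPM in the 5 HS libraries. The groups did not overlap and the log2 fold change was 2.51 ± 0.30 (adjusted p = 2.17e-05), between 2.39 and 2.72 over the alternatives run. In the GENCODE annotation Abcc3 (chr11:94343295-94392997, minus strand) shares no exon base with another gene on either strand. The median log2 fold change was 0.20 over the members and 0.01 over all tested genes. Against NC livers the HS_Chol level of Abcc3 was 0.41 ± 0.32 higher on the log2 scale and passed no test (adjusted p = 0.732).

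Ostb had 0 reads in HS_Chol_0, HS_Chol_1 and HS_Chol_2, against 9, 5, 10, 2 and 1 reads (1.28, 0.814, 1.57, 0.272 and 0.150 CPM) in HS_0 to HS_4. Ostb was called lower in HS_Chol than in HS livers (adjusted p = 0.0136). The HS mean of 0.816 CPM was 5.17-fold the 0.158 CPM that 3 reads over the 3 HS_Chol libraries would give. This ratio leaves out the spread of the HS libraries, of which HS_4 lay below 0.158 CPM. The call was lost without HS_Chol_0 (0.0637), without HS_Chol_1 (0.0593) and among libraries of positive length slope (0.373). Within HS, the 3 libraries with a negative length slope held 5 to 10 reads and the other pair 1 and 2. Ostb is a short transcript (709 bp of exons, shorter than all but 1.15% of tested genes with a known length). It shares 91 bp with Rasl12 on the opposite strand, and the part of the strand measure in this value was not tested.

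The other members were not called between HS_Chol and HS livers: Abcb11 was at -0.12 ± 0.29 on the log2 scale, Abcc2 at 0.63 ± 0.40, Abcb4 at 0.22 ± 0.18, Abcb1a at 0.23 ± 0.68, Atp8b1 at 0.05 ± 0.32 and Abcc4 at 0.17 ± 0.62, with adjusted p from 0.529 to 0.965.

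Against NC livers, 0 members were called in HS_Chol livers with edgeR and 0 with DESeq2, and 1 had an unadjusted p under 0.05. The share of all tested genes called in either direction was 2.28%. That member was Ostb, which was lower in HS_Chol (unadjusted p = 0.00245, adjusted p = 0.077), and it passed among libraries of positive length slope (0.0388). Its NC mean of 0.451 CPM was 2.85-fold the 0.158 CPM of 3 reads over the HS_Chol libraries, a ratio that leaves out the spread of the NC libraries. Abcb11 had 489, 640.2 and 720.1 CPM in the HS_Chol libraries, against 529 to 1029 CPM in the NC libraries (log2 fold change -0.45 ± 0.31, adjusted p = 0.669). Abcc2 was at 0.06 ± 0.42 on the log2 scale, Abcb4 at -0.04 ± 0.19, Abcb1a at -0.69 ± 0.65, Atp8b1 at -0.08 ± 0.33 and Abcc4 at -0.29 ± 0.62, with adjusted p from 0.806 to 0.99. The ratio of Abcb4 to Abcb11 reads had a median of 0.502 in HS_Chol and 0.392 in NC livers, with no overlap. Its two-sided exact permutation p of 0.0286, the smallest that 3 against 4 libraries allow, became 0.114 over the 8 ratio tests.

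The fitted cholesterol change differed between the base diets for 3 members. Each difference uses the HS_Chol libraries, in which the diet and the high light-strand tRNA reads cannot be told apart. In the test of the difference itself, (Chol_CA - CA) minus (HS_Chol - HS) on the log2 scale, 3 of the 8 were called lower and 0 higher, where 2.47% of all tested genes were called higher and 3.53% lower. For Abcc3 the difference was -4.06 ± 0.43 (adjusted p = 6.13e-06), made of a log2 fold change of -1.55 on cholic acid and of 2.51 on sucrose. For Abcb1a it was -3.98 ± 0.83 (adjusted p = 0.00614), made of -3.74 and 0.23. For Abcc4 it was -3.20 ± 0.80 (adjusted p = 0.0205), made of -3.02 and 0.17. In the HS libraries Abcb1a had only 5 to 20 reads and Abcc4 12 to 30 reads. A further fall on sucrose could therefore hardly be measured for these genes, unlike a fall from their higher levels in CA livers. The Abcb1a call was lost without HS_Chol_1 (0.0615). The Abcc4 call was lost without HS_Chol_0 (0.067) or HS_Chol_1 (0.0627), without the filter on low counts (0.0502), with the sign of the length slope as a term (0.0803), with the slope as a covariate (0.0598) and among libraries of positive slope (0.134). Abcb11 (-0.79 ± 0.41, adjusted p = 0.278), Abcc2 (-1.62 ± 0.56, 0.0959), Abcb4 (-0.57 ± 0.25, 0.191) and, with the opposite sign, Atp8b1 (0.32 ± 0.44, 0.708) and Ostb (0.0912) were not called. The fitted difference of Ostb, 4.15 ± 1.40, rests on a diet with no reads and depends on the prior count. Ostb passed without HS_4 (0.0427). Abcb11 passed with the slope as a covariate (0.049), and Abcc2 with the covariate (0.0089), among libraries of positive slope (0.0366) and without CA_0 (0.0257).

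Cholic acid and sucrose diets set side by side. Against HS livers, CA livers had higher Abcb11 (log2 fold change 0.99 ± 0.27, adjusted p = 0.0177), Abcb4 (0.60 ± 0.16, 0.0178), Abcb1a (5.85 ± 0.49, 1.25e-07), Ostb (4.36 ± 0.35, 1.99e-07), Abcc3 (3.12 ± 0.29, 5.95e-07) and Abcc4 (3.65 ± 0.50, 4.12e-05), 6 of the 8 members. Of all tested genes 6.89% were called higher and 6.34% lower. The Abcb11 call was lost without CA_1 (0.0654) or CA_2 (0.0545). Abcc2 was at 1.11 ± 0.37 and just missed the threshold (adjusted p = 0.0545). It passed with DESeq2 (0.027), with the 2 diets alone (0.041), with the stricter filter (0.0466), without CA_0 (0.0112) or HS_4 (0.0461), and with the length offset (0.0277), the slope as a covariate (0.00695) or positive slopes only (0.00827). Atp8b1 was at -0.34 ± 0.29 (0.516) and passed with the covariate (0.0132) and the sign of the slope as a term (0.0431). Kupffer cell markers were called higher in CA than in HS livers for 7 of 11, and bile duct markers for 2 of 11. Against HS_Chol livers, Chol_CA livers had higher Abcb1a (1.87 ± 0.60, adjusted p = 0.0372) and Ostb (adjusted p = 5.56e-06) and lower Abcc3 (-0.95 ± 0.32, 0.0457). The Chol_CA mean of Ostb was 37.3-fold the level of 3 reads over the HS_Chol libraries. Here 10.2% of all tested genes were called higher and 6.50% lower. The Abcb1a call was lost without any 1 of the HS_Chol libraries, Chol_CA_0 or Chol_CA_2 (0.0538 to 0.174), and the Abcc3 call without any 1 HS_Chol library, Chol_CA_1, Chol_CA_2 or Chol_CA_3 (0.0582 to 0.12). Neither passed without the filter on low counts (0.0872 for Abcb1a and 0.0503 for Abcc3) or among libraries of positive length slope (0.0547 and 0.0524). The Abcb1a call was also lost with the 2 diets alone (0.0539), and the Abcc3 call with the slope's sign as a term (0.0506), the slope as a covariate (0.0516) and the stricter filter (0.0612). Abcb11 (0.20 ± 0.31), Abcc2 (-0.51 ± 0.42), Abcb4 (0.03 ± 0.19), Atp8b1 (-0.02 ± 0.33) and Abcc4 (0.45 ± 0.61) were not called, with adjusted p from 0.479 to 0.98. Markers were called higher in Chol_CA than in HS_Chol livers for 9 of 11 Kupffer cell, 10 of 10 macrophage, 5 of 10 stellate and matrix and 3 of 11 bile duct genes, and their part in these values was not tested.

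Several members moved together among libraries of the same diet. After each library's log2 CPM was set against its diet mean, Abcb11 and Atp8b1 moved together with a Pearson r of 0.91, and Abcb11 and Abcc2 with 0.86. Abcc3 and Abcc4 moved together with 0.88, Abcb1a and Abcc3 with 0.78, and Abcb1a and Abcc4 with 0.71. Abcc2 also moved with Abcb4 (0.78) and Atp8b1 (0.75), and less closely with Abcc3 (0.50), Abcc4 (0.48) and Abcb1a (0.37). Ostb followed none closely, from -0.24 with Abcb11 to 0.31 with Abcb1a. It had no reads in the HS_Chol libraries and 1 to 10 reads per HS or NC library, so counting error limits these values. The widest deviations of Abcc3, Abcc4 and Abcb1a were all in CA_0, at -1.05, -1.71 and -1.71. The deviations of Abcb11, Abcc2, Atp8b1 and Abcb4 correlated with the length slope of the library (0.93, 0.89, 0.89 and 0.78), and those of Abcb1a, Abcc3, Abcc4 and Ostb less so (0.28, 0.25, 0.22 and -0.33). These correlations are descriptions over 20 libraries that share depth and preparation within a library. NC_3, with a slope of -0.16, had the lowest Abcb11, Abcc2, Abcb4 and Atp8b1 of the chow livers, at 529, 200.4, 222 and 37.7 CPM, against 878 to 1029, 465 to 617, 349.9 to 359 and 76.2 to 81.8 CPM in the other 3. Chol_CA_1, with a slope of -0.25, had the lowest values of the same 4 genes among the Chol_CA livers, at 343, 116, 213 and 30.2 CPM.

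**Figure D3:**
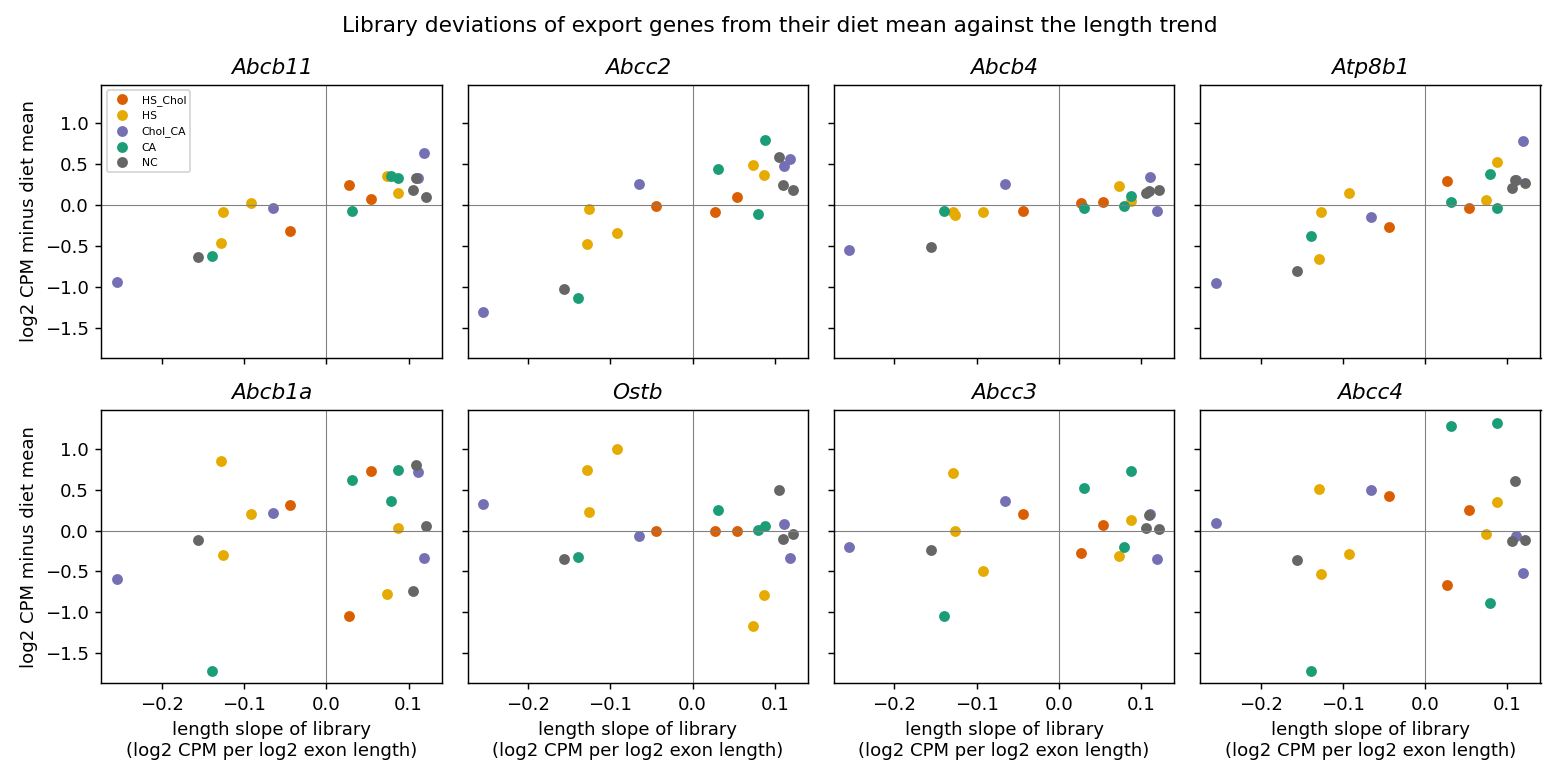
Deviation of each library's log2 CPM (prior count of 2) from its diet mean (vertical axes) against the length slope of the library (horizontal axes) for the 8 tested export genes; points are the 20 libraries, coloured by diet. Points of Abcb11, Abcc2, Abcb4 and Atp8b1 rise from left to right (r of 0.93, 0.89, 0.78 and 0.89), and those of the other genes spread more widely.

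**Figure D4:**
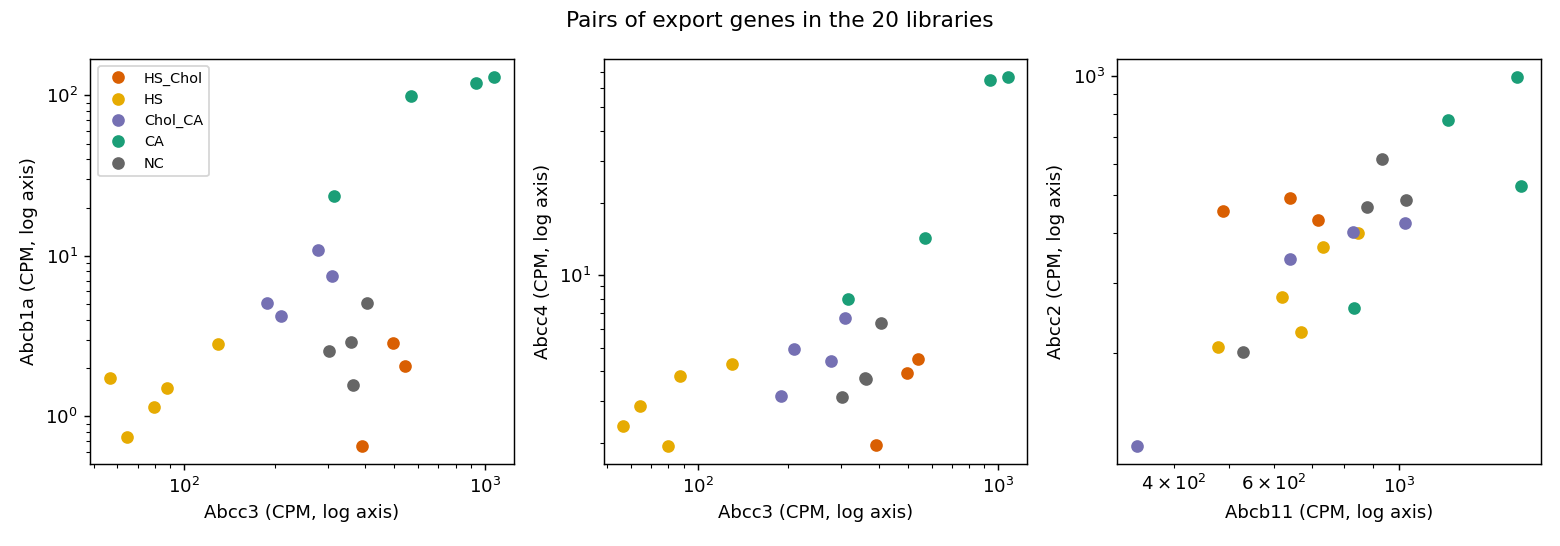
Levels in each of the 20 libraries (CPM, log axes) of Abcb1a and Abcc4 against Abcc3 and of Abcc2 against Abcb11, coloured by diet. On the left and in the middle the CA libraries run from CA_0 (Abcc3 at 316 CPM) to CA_2 (1076 CPM), and HS_Chol libraries lie at high Abcc3 (391 to 541 CPM) with Abcb1a of 0.656 to 2.87 CPM.

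For each member with a mean of at least 1 CPM, the 3 genes most like it in log2 level over the 20 libraries were sought. They were taken from 11822 tested genes, with the members and predicted gene models left out. Differences between diets and in the length slope were left in, and their part in these r values was not tested. For Abcb1a they were Akr1b7 (Pearson r of 0.97), Epb4.1l1 (0.97) and Prom1 (0.96), and for Abcc4 they were Cyp2b13 (0.94), Prom1 (0.92) and Akr1b7 (0.92). For Abcc3 they were Ephx1 (0.94), Dopey2 (0.93) and Aox1 (0.92), and for Ostb Ppap2c, Gstm3 and Tmem141 (each 0.91). For Abcb11 they were Lcorl (0.94), Mme (0.93) and Hal (0.93), for Abcc2 Pacsin2 (0.96), Chdh (0.95) and Eaf1 (0.94), for Abcb4 Tpr (0.93), Ugt2b35 (0.90) and Map3k13 (0.89), and for Atp8b1 Cps1 (0.94), Herc2 (0.91) and Lsm14a (0.91).

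Other genes that handle bile acids and sterols are given for context. Of 13 bile acid synthesis enzymes, 0 were called higher and 7 lower in CA than in NC livers. Cyp7a1, the rate-limiting enzyme, averaged 0.486 ± 0.598 CPM in CA livers and 53.8 ± 17.4 CPM in NC livers, and Cyp8b1, needed to make cholic acid, 1.40 ± 0.602 CPM in CA and 619.9 ± 150.8 CPM in NC livers (SD, n = 4 each). In Chol_CA livers Cyp7a1 was at 22.8 ± 8.03 CPM and Cyp8b1 at 7.84 ± 3.48 CPM, both called higher than in CA livers (adjusted p = 4.21e-06 and 5.47e-05). Of 8 uptake carriers, 1 was called higher and 5 lower in CA than in NC livers: Slc10a1, the sodium-dependent bile acid carrier, was at 330.7 ± 43.6 CPM in CA and 802 ± 42.5 CPM in NC livers, Slc22a7, an organic anion carrier, at 5.12 ± 2.02 CPM in CA and 24.8 ± 6.46 CPM in NC livers, and Slco1a4, another such carrier, was the 1 that was higher, at 253 ± 134 CPM in CA and 36.0 ± 13.3 CPM in NC livers.

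Of 14 other hepatocyte export transporters, 3 were called higher and 1 lower in CA than in NC livers. The lower one was Slc47a1, an exporter of organic cations (log2 fold change -1.56 ± 0.23). Abcg5 and Abcg8, which together move sterols into bile, were called higher than in NC livers in HS_Chol (log2 fold changes 2.06 and 1.81), Chol_CA (2.19 and 1.80) and CA livers (1.59 and 1.35). Among 14 tested receptors and partners that act on export genes, Nr1h4 (FXR) was lower in CA than in NC livers, at 86.2 ± 12.5 CPM in CA and 151.7 ± 6.03 CPM in NC livers, and Nr1i2 (PXR) was higher, at 127.5 ± 25.9 CPM in CA and 71.5 ± 8.50 CPM in NC livers (adjusted p = 0.00158 and 0.000337). Nr0b2, the FXR target SHP, was at 100.3 ± 19.0 CPM in CA and 80.3 ± 9.31 CPM in NC livers and did not pass (adjusted p = 0.522). In Chol_CA livers Nr1i2 was at 57.1 ± 3.03 CPM, lower than in CA livers (log2 fold change -1.16 ± 0.13, adjusted p = 1.25e-05).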

How the data were processed

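Total liver RNA was sequenced in strand-specific Illumina libraries with single-end reads of 50 bp, per the labels' protocols. The authors deposited raw read counts per gene symbol, whole numbers with no normalization; per the submitters' processing notes STAR 2.6.1c and mm10 were used. The strand counted is not given in the sources used here. Column names gave the diet but not the single sample, so 20 columns were used by diet, and 3 further columns that matched no label were not used.

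Tests used edgeR 4.0.16 (R 4.3.3; TMM scaling, filterByExpr with a minimum count of 10, robust quasi-likelihood fits of 5 diets over 20 libraries), with Benjamini-Hochberg adjustment over 12595 genes at 0.05; Osta was not tested for want of reads. Replicates were checked for duplicates and differed by more than counting error. Where a group had no reads, a bound was set at 3 reads over its libraries, which covers counting error in that group only. Fold values against this bound leave out the spread of the other group. DESeq2 1.42.0, other filters, other scalings, fits on the compared diets alone, corrections for the length slope and leaving out each library were the alternatives. Of these, the slope as a covariate and the length offset were chosen after seeing the data. The calling procedure was tested on simulated counts. Exon lengths came from GENCODE M21 (GRCm38), and the annotation behind the counts may differ. Ratios of reads were compared by exact permutation. All tested members are named in every comparison; genes of a context list were named from among the 4 called with the smallest adjusted p, besides Cyp7a1, Cyp8b1, Nr0b2, the 3 genes most alike each member, and the paralog Abcb1b, added after its values were seen. The members and lists were chosen with earlier results of these data known.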

Additional observations from a re-analysis of the deposited data

Results flagged for a closer look

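In 3 cases 1 library of a diet lay far from the others of its group (the highest or lowest sample's gap to the next, relative to the range). In NC livers Abcb4 was at 222 CPM in NC_3, against 349.9 to 359 CPM in the other NC libraries, and Atp8b1 was at 37.7 CPM in NC_3, against 76.2 to 81.8 CPM. NC_3 was also the NC library with a negative length slope. The only read of Osta stood in NC_2, at 0.130 CPM. For normally distributed values, chance alone marks about 1 in 20 groups in this way. That rate does not hold for Osta, since 1 read among libraries without any is always marked. Abcb4 and Atp8b1 were marked in the same library, so these cases are not independent.

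The fitted cholesterol change differed between the cholic acid and the sucrose base diets for Abcb1a (log2 difference -3.98), Abcc3 (-4.06) and Abcc4 (-3.20) in an interaction test. Abcb1a and Abcc4 averaged only 1.59 and 3.04 CPM in HS livers, so a further fall on sucrose could hardly be measured. Each difference also uses the HS_Chol libraries, in which the diet and the high light-strand tRNA reads cannot be told apart.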

How the results depend on the processing

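No paired analysis was possible because columns of the table are numbered from 0 within a diet and samples from 1 in the labels, which ties no column to a numbered sample. Of 72 member results (8 genes in 9 comparisons), 25 were called, and 17 of these kept their direction and their call under every alternative run. The length slope as a covariate, chosen after seeing the data, gave 7 called members for CA against NC and 8 for Chol_CA against CA. The count was 1 for Chol_CA against HS_Chol without the filter and with positive slopes only, 1 for HS_Chol against HS with the compared diets alone (Ostb was then below the filter) and with positive slopes only, and 1 for HS_Chol against NC with positive slopes only. Leaving out libraries gave 1 to 2 called members for Chol_CA against HS_Chol and for HS_Chol against HS, 1 to 4 for the interaction, 3 to 4 for CA against NC and 4 to 6 for Chol_CA against CA. The causes were not tested.

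Sign changes were seen in uncalled results and in none that passed the threshold in either setting. For Chol_CA against HS_Chol, Atp8b1 was at 0.010 with the compared diets alone, 0.025 with the slope's sign as a term, 0.28 with positive slopes only and 0.0086 with the stricter filter. For Chol_CA against NC, Abcb4 was at 0.0063 with the compared diets alone, 0.058 with the length offset, 0.094 with the slope covariate, 0.061 with the sign term and 0.036 with the stricter filter; Abcc4 was at -0.30 with positive slopes only; Atp8b1 was at 0.085 with the covariate, 0.049 with the sign term and 0.12 with positive slopes only. For HS against NC, Atp8b1 was at 0.20 with the covariate and 0.15 with the sign term, and Ostb at -1.18 with positive slopes only. For HS_Chol against HS, Abcc4 was at -0.16 with positive slopes only, and Atp8b1 at -0.013 with the offset, -0.11 with the covariate, -0.13 with the sign term and -0.096 with positive slopes only. For HS_Chol against NC, Abcb4 was at 0.029 with the covariate, Abcc2 at -0.18 with positive slopes only, and Atp8b1 at 0.092 with the covariate and 0.024 with the sign term.

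Leaving out 1 library gave these ranges of log2 fold change: for Chol_CA against HS_Chol, Abcb11 -0.055 to 0.43, Abcb4 -0.077 to 0.18 and Atp8b1 -0.35 to 0.22; for Chol_CA against NC, Abcb4 -0.14 to 0.14, Abcc4 -0.070 to 0.44 and Atp8b1 -0.46 to 0.14; for the interaction, Atp8b1 -0.021 to 0.56; for HS_Chol against HS, Abcb11 -0.26 to 0.0097, Abcb1a -0.23 to 0.60, Abcc4 -0.066 to 0.43 and Atp8b1 -0.13 to 0.20; and for HS_Chol against NC, Abcb4 -0.19 to 0.011, Abcc2 -0.19 to 0.25 and Atp8b1 -0.29 to 0.051. Depth limited Osta, Ostb on the diets without cholic acid, and Abcb1a and Abcc4 outside CA, which rest on 49 reads or fewer per library except in Chol_CA.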
